A study of Homo sapiens with 66 samples.

Results

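The cyclin-dependent kinase (CDK) inhibitor genes CDKN1A, CDKN1B, CDKN1C, CDKN2C and CDKN2D and the growth-arrest genes GADD45A, GADD45B, MDM2 and BTG2 were examined in THP-1 cells, a human monocytic leukemia line, after CRISPR/Cas9 targeting of hnRNPC, ADAR or both. These 9 genes, of 57820 in the gene count tables, were found by Ensembl gene identifier in both experiments. The list was chosen by a measured value, the higher CDKN1A RNA of hnRNPC-targeted cells on day 3, so the values of hnRNPC against nontarget control (CTRL) cells on that day are given as a description with no test. Other comparisons that use the day 3 CTRL libraries share those values with the choice, and their differences and counts are likewise descriptions. 8 of the 9 passed the filter on low counts in each experiment, where 13187 and 13637 genes were tested, and CDKN1C did not.

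CDK inhibitors restrain the kinases that drive cells through division. Members of the CIP/KIP family (p21 from CDKN1A, p27 from CDKN1B, p57 from CDKN1C) bind complexes of cyclins with CDKs, whereas the INK4 proteins p18 (CDKN2C) and p19 (CDKN2D) bind the monomeric kinases CDK4 and CDK6. GADD45A, GADD45B and BTG2 are stress-responsive genes whose products slow growth, and MDM2 encodes a ubiquitin ligase that marks proteins for degradation. hnRNPC is a nuclear RNA-binding protein that binds uridine runs in introns, and ADAR converts adenosine to inosine in double-stranded RNA.

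Study 1 comprised 48 libraries, 16 groups of 3, from a STING-deficient THP-1 clone carrying a Cas9 transgene. Cells received 2 guide RNAs (gRNAs) each: the nontarget gRNA NC1 alone (CTRL), or NC1 with an hnRNPC, ADAR or GFP gRNA, or the hnRNPC and ADAR gRNAs together (ADAR+hnRNPC). RNA was taken 3, 4 and 5 days after nucleofection, and 1 further day 4 group of CTRL cells was exposed to IFN-alpha. Study 2 comprised 18 libraries, 9 groups of 2, from a wild-type Cas9 transgenic clone that received other gRNAs against the same genes. Its total RNA and digitonin-soluble RNA (enriched for cytosol) came from CTRL, hnRNPC, ADAR and ADAR+hnRNPC cells on day 4, and the digitonin-insoluble RNA (enriched for nuclei and mitochondria) came from hnRNPC cells. Each study therefore rests on 1 Cas9 clone, and the targeted cells were described as nucleofected with gRNAs, not as knockout clones. The agents behind the hnRNPC groups are shown here, each with its adjoining PAM in capitals; both lie in a coding exon of HNRNPC on GRCh37, the first at chr14:21702173-21702192 (used in study 2) and the second at chr14:21702284-21702303 (used in study 1), on the plus strand of a gene read from the minus strand.
hnRNPC.1: ctcattaacatactgaacgaAGG
hnRNPC.2: gagattcccaatgaatacacGGG

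Gene counts summed to 95107690 to 152829008 per library in study 1 and 49666958 to 73873756 in study 2. Values are given in CPM, a gene's counts relative to its library's total after scaling by trimmed mean of M-values. HNRNPC was at 294 to 417 CPM in the study 1 libraries with an hnRNPC gRNA and at 725 to 869 CPM in the others, with no overlap. In study 2 it was at 378 to 493 against 581 to 910 CPM in total RNA, also with no overlap. In digitonin-soluble RNA it was at 455 to 701 against 870 to 1025 CPM, again with no overlap. Only when the 3 kinds of RNA were pooled did the ranges, 297 to 701 and 581 to 1025 CPM, overlap. On day 5 the HNRNPC fold change was −1.39 (log2) with the hnRNPC gRNA alone and −1.08 with both, and ADAR RNA was not lower with both (log2 fold change 1.75). The monocytic markers CD33 (47.6 to 73.2 CPM) and SPI1 (42.3 to 70.8 CPM) were present in all study 1 libraries and CD14 was low (0.0991 to 3.93 CPM), whereas of 10 markers of other blood cells 1 passed the filter and GATA1 had no read in any of the 48 libraries. On day 5, 1 GFP library (replicate 3) stood apart from its group at several members. In these bulk samples more RNA per cell and more cells with a given level cannot be told apart.

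CDKN1A, whose product p21 stops cells between growth and DNA replication, had the widest range of all members in study 1. In CTRL cells the 3 libraries were at 18.9, 17.8 and 21.2 CPM on day 3, at 30.5, 24.0 and 29.5 on day 4 and at 29.4, 31.7 and 39.0 on day 5. In hnRNPC-targeted cells they were at 43.1, 42.5 and 48.8 CPM on day 3, at 103, 110 and 128 on day 4 and at 228, 188 and 216 on day 5. No hnRNPC library overlapped a CTRL library on any day, and each later day lay above the earlier one. The day 3 difference, which the choice of genes used, was 1.22 on the log2 scale (SE 0.20), and 0.76 with GFP-targeted cells as the control. On days 4 and 5, in libraries the choice did not use, CDKN1A rose 4.06-fold (log2 2.02, SE 0.20, adjusted p = 1.58e-10) and 6.32-fold (log2 2.66, SE 0.21, adjusted p = 8.48e-14). Those libraries may come from the same experiments as the day 3 libraries, so they may not be independent of the choice. Against GFP cells CDKN1A was higher by 1.70 on day 4 and by 1.84 on day 5, when 1 GFP library was at 99.8 CPM. The group means ran from 19.3 CPM in day 3 CTRL cells to 210.9 CPM in day 5 hnRNPC cells, a ratio of 10.9, compared with 6.58 for BTG2, 6.19 for GADD45A and 1.42 for CDKN2C, the narrowest. In study 2 the ratio was 2.34 for CDKN1A, below GADD45A at 5.07 and CDKN2D at 2.52.

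**Figure D1:**
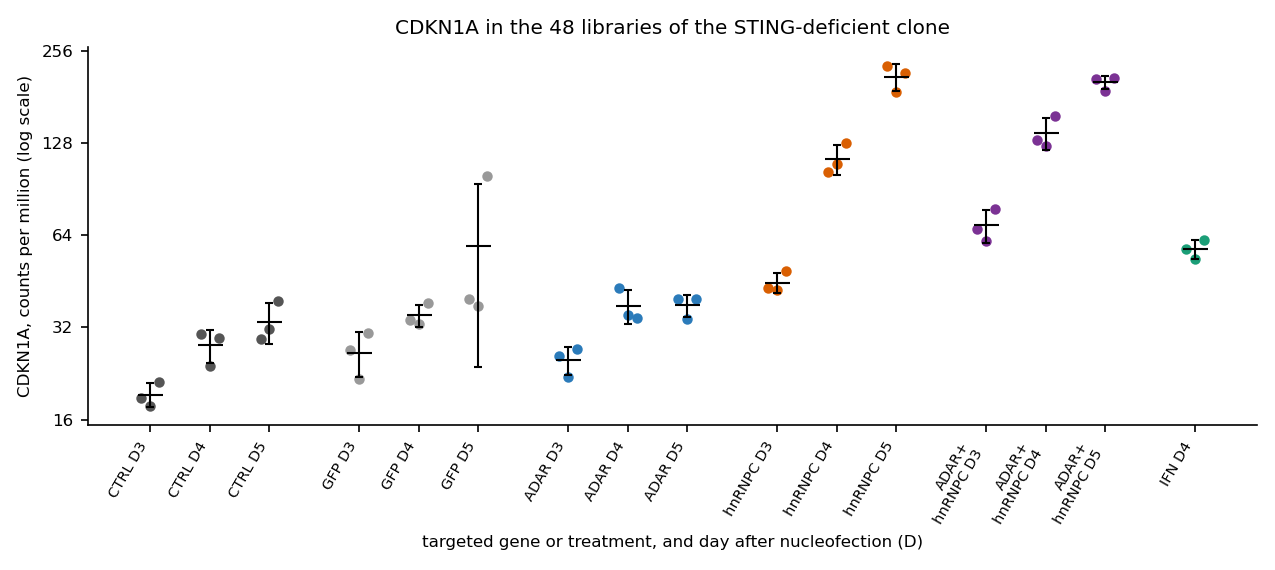
CDKN1A in CPM (log axis) in each of the 48 study 1 libraries by group and day; dots are libraries and bars the mean ± SD of 3. The hnRNPC and ADAR+hnRNPC libraries of day 5 sat between 188 and 228 CPM, above all libraries of the other groups, and 1 GFP library of day 5 lay at 99.8 CPM.

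CDKN1A lies at chr6:36644237-36655114 on the plus strand of GRCh37, with 8 merged exons that span 2996 bases. BTG2, an antiproliferative gene that rose with CDKN1A, lies at chr1:203274619-203278730 on the plus strand. The 250 bases before each start are shown because BTG2 was the member whose study 1 group means ran most like those of CDKN1A. Both come from RefSeq on GRCh38.p14, at chr6:36678464-36678713 and chr1:203305269-203305518 on the plus strand, and capitals mark GC boxes (GGGCGG, or CCGCCC on the other strand) and a CCAAT box.
CDKN1A: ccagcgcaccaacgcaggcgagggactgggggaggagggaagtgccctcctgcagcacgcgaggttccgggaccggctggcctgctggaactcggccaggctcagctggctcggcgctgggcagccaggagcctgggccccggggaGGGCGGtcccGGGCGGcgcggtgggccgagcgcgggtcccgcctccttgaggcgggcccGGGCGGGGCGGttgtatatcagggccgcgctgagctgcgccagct
BTG2: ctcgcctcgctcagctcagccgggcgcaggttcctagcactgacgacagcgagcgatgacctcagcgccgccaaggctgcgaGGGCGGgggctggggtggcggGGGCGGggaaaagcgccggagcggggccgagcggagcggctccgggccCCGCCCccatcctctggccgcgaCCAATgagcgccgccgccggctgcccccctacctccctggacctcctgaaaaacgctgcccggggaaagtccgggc
The CDKN1A window held 4 GC boxes, with the last 2 overlapping, and the BTG2 window held 3 GC boxes and 1 CCAAT box. Searched on both strands, GGGCGG occurred in 42.6% and CCAAT in 32% of 35116 RefSeq promoter windows, each likewise the 250 bases before a start. RefSeq windows were at hand for 7 of the 9 members, all but GADD45A and CDKN1C. A match of letters describes the window and is not a site shown to be used.

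BTG2 followed the same course at a lower level. The CTRL libraries were at 8.78, 9.80 and 9.75 CPM on day 3, then 11.6, 10.2 and 10.7 on day 4 and finally 10.9, 12.2 and 16.6 on day 5. The hnRNPC libraries were at 14.4, 15.1 and 15.6 CPM, then 26.9, 25.2 and 30.4, then 51.4, 43.3 and 51.0 on the same days. The groups did not overlap on any day. BTG2 rose by 1.34 (log2, SE 0.16, adjusted p = 1.45e-08) on day 4 and by 1.88 (3.67-fold, SE 0.17, adjusted p = 2.48e-12) on day 5, and its day 3 difference, as a description, was 0.67.

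GADD45A, a DNA damage and stress gene at chr1:68150884-68154017 (plus strand), was at 14.1, 12.7 and 12.5 CPM in CTRL cells on day 3, then 16.5, 15.3 and 16.8 on day 4 and finally 14.6, 14.3 and 17.1 on day 5. In hnRNPC-targeted cells it was at 18.9, 19.8 and 21.0 CPM, then 26.9, 27.1 and 30.1, then 33.8, 30.6 and 30.0. Every hnRNPC library was above every CTRL library. The gene rose by 0.79 (log2, SE 0.08, adjusted p = 1.7e-10) on day 4 and by 1.04 (adjusted p = 6.74e-14) on day 5. Its relative GADD45B (chr19:2476120-2478257, plus strand) was at 17.7, 15.6 and 18.8 CPM in hnRNPC cells on day 4 against 17.0, 14.5 and 17.4 in CTRL cells, which overlapped (log2 0.09, SE 0.10, adjusted p = 0.457). On day 5 GADD45B was at 24.1, 22.2 and 22.0 CPM against 16.5, 15.7 and 16.8 CPM and rose by 0.48 (adjusted p = 6.09e-05). Against GFP-targeted cells as the control the day 5 difference was 0.11 (adjusted p = 0.352). GADD45B ran from 16.6 to 26.1 CPM in that GFP group, where 1 library stood apart at several members.

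MDM2, the ubiquitin ligase gene, was at 200, 211 and 194 CPM in CTRL and 273, 296 and 298 CPM in hnRNPC cells on day 4, and at 183, 202 and 226 against 242, 259 and 277 CPM on day 5. The groups did not overlap, and MDM2 rose by 0.52 (log2, SE 0.08, adjusted p = 6.41e-07) and by 0.35 (adjusted p = 0.000161). CDKN2D (p19; chr19:10677136-10679735, minus strand) was at 7.05, 6.88 and 6.99 CPM in CTRL and 10.2, 10.0 and 9.23 CPM in hnRNPC cells on day 4, a rise of 0.49 (SE 0.12, adjusted p = 0.000573), and rose by 0.63 on day 5 (adjusted p = 1.21e-05). On day 3 CDKN2D had been at 6.26, 6.24 and 6.51 CPM in hnRNPC cells, below the CTRL libraries at 7.37, 6.54 and 6.77.

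CDKN1B (p27; chr12:12838432-12875303) and CDKN2C (p18; chr1:51426417-51440306), both on the plus strand, went the other way. CDKN1B was at 56.4, 59.5 and 60.9 CPM in CTRL and 40.0, 46.3 and 47.9 CPM in hnRNPC cells on day 4, and at 53.6, 55.3 and 67.2 against 37.4, 39.2 and 38.7 CPM on day 5. It fell by 0.40 (log2, SE 0.07, adjusted p = 2.74e-05) and then by 0.61 (adjusted p = 6.1e-09). CDKN2C was at 276, 273 and 291 CPM in CTRL and 210, 226 and 223 CPM in hnRNPC cells on day 4, and at 268, 269 and 302 against 228, 210 and 214 CPM on day 5. It fell by 0.35 (SE 0.06, adjusted p = 3.28e-06) and by 0.36 (adjusted p = 8.87e-07). For both genes all hnRNPC libraries lay below all CTRL libraries.

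CDKN1C (p57; chr11:2904443-2907005, minus strand) was at 0.463 to 1.99 CPM in the study 1 libraries, from 52 to 274 counts each, and was not tested. Its libraries were at 1.64, 1.59 and 1.83 CPM in CTRL and 0.657, 0.755 and 1.03 CPM in hnRNPC cells on day 4, which did not overlap. The day 4 CTRL mean was the highest of the 16 group means. On day 3 the ranges overlapped (0.583 to 1.13 CPM in CTRL and 0.635 to 0.944 in hnRNPC cells). They also overlapped on day 5 (1.10 to 1.39 and 1.27 to 1.68 CPM), when the hnRNPC mean was the higher. Study 2 libraries held 28 to 78 CDKN1C counts.

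Of the 8 tested members, 7 passed the test on day 4 (5 higher, 2 lower), where 51.4% of all genes did, and 8 on day 5 (6 higher, 2 lower), where 64.8% did. With so many genes past the test the count of members is not far from the background on day 5. The median log2 fold change of the members was 0.51 on day 4 and 0.56 on day 5, compared with −0.02 and −0.03 over all genes tested. On day 3 the contrast served for the choice, so its count of 5 of 8, beside 38% of all genes, is given for completeness and nothing is read from it. Since days 3, 4 and 5 had their own CTRL libraries, these comparisons share no library, but the days may come from the same experiments.

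**Figure D2:**
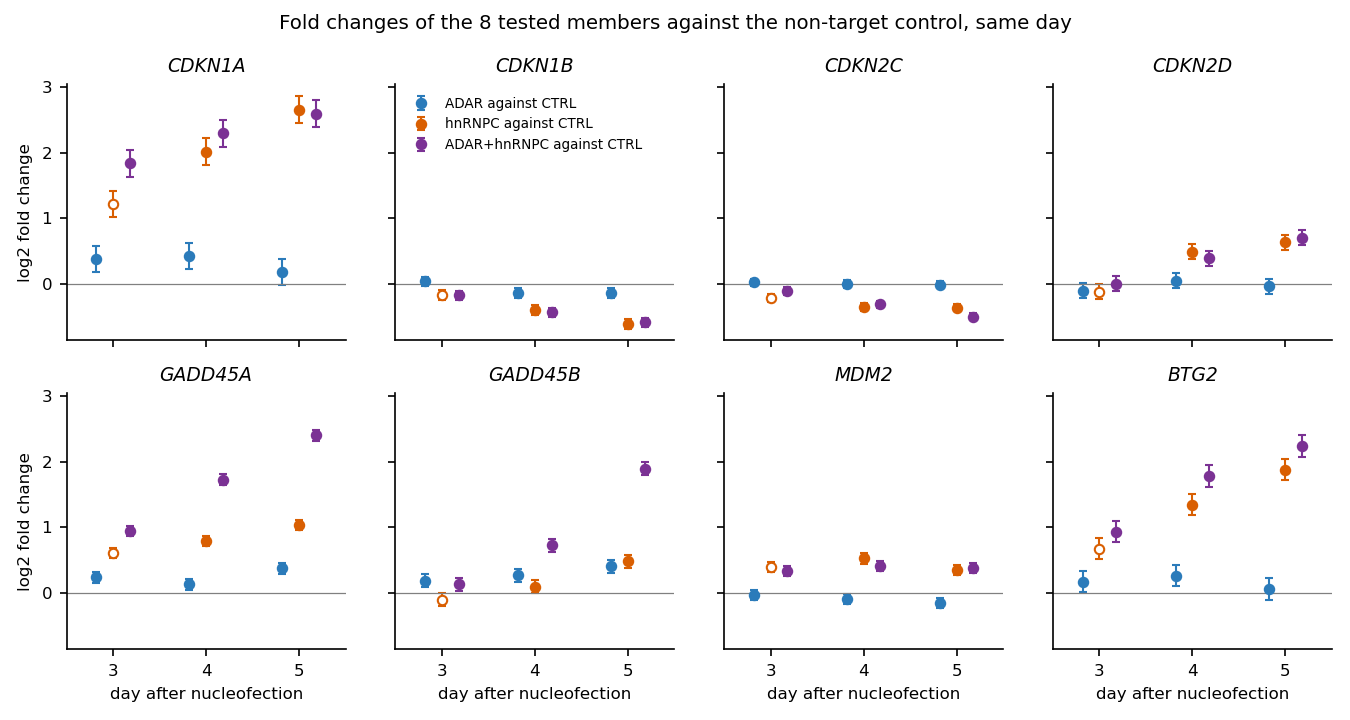
Log2 fold change (± SE) of the 8 tested members against CTRL of the same day in study 1, for ADAR, hnRNPC and ADAR+hnRNPC gRNAs, by day; open symbols mark the hnRNPC day 3 values used to choose the list. CDKN1A and BTG2 climbed with the days in both hnRNPC series, CDKN1B and CDKN2C lay below 0 on days 4 and 5, and the GADD45A and GADD45B points of ADAR+hnRNPC cells separated from those of hnRNPC cells.

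With the ADAR gRNA and no hnRNPC gRNA, few members passed the test. CDKN1A was at 25.8, 22.1 and 27.3 CPM on day 3, then 43.2, 35.3 and 34.4 on day 4 and finally 39.6, 34.2 and 39.6 on day 5, with a log2 difference of 0.43 on day 4 (adjusted p = 0.348) and of 0.18 on day 5 (adjusted p = 0.589). On day 3, a description since those CTRL libraries entered the choice, 0 of 8 members passed, where 0% of all genes passed with edgeR. The unadjusted edgeR p was under 0.05 for 535 genes, while DESeq2 called 1 gene and limma-voom 0. Of the members, GADD45A (log2 0.23, adjusted p = 0.997) was the 1 with an unadjusted p under 0.05 on that day, and neither other tool called a member. On day 4, 0 members passed with edgeR, DESeq2 and limma-voom against 0.645% of all genes, with 2 (CDKN1A and GADD45B) under an unadjusted 0.05. On day 5, 2 members rose, against 9.23% of all genes: GADD45A was at 19.7, 17.7 and 22.0 CPM (log2 0.37, adjusted p = 0.0038) and GADD45B at 22.5, 20.5 and 21.5 CPM (log2 0.40, adjusted p = 0.0105). Neither call held against the GFP group of that day (0.20, adjusted p = 0.203, and 0.03, adjusted p = 0.931), in which GADD45B ran from 16.6 to 26.1 CPM. The GADD45A call was also lost without ADAR replicate 3 (0.29, adjusted p = 0.0605), and the GADD45B call without ADAR replicate 1 (adjusted p = 0.0530) or CTRL replicate 2 (adjusted p = 0.0684).

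With both genes targeted, CDKN1A was at 67.3, 61.5 and 78.1 CPM on day 3, then 131, 126 and 157 on day 4 and finally 208, 190 and 209 on day 5. Against CTRL it was 1.84 higher (log2) on day 3, a description since those CTRL libraries entered the choice, and it rose by 2.30 (adjusted p = 5.39e-12) and 2.60 (adjusted p = 5.06e-14) on days 4 and 5. These values share their CTRL libraries with the hnRNPC and ADAR comparisons. Set directly against hnRNPC-targeted cells, CDKN1A differed by 0.28 on day 4 (95% interval −0.11 to 0.67, adjusted p = 0.291) and by −0.06 on day 5 (−0.45 to 0.33, adjusted p = 0.804), so a difference beyond these bounds was not detected. BTG2 was at 16.8, 16.9 and 20.3 CPM, then 35.1, 34.1 and 42.4, then 63.7, 59.1 and 63.7. Against CTRL the day 3 difference was 0.93, and BTG2 rose by 1.78 (adjusted p = 1.92e-11) and 2.23 (adjusted p = 1.06e-14) on days 4 and 5. Against hnRNPC cells BTG2 was higher by 0.44 on day 4 (adjusted p = 0.037) and by 0.36 on day 5 (adjusted p = 0.0498), but the day 5 call was lost without any 1 of the 6 libraries and the day 4 call without any 1 of 4.

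GADD45A and GADD45B stood apart from the other members in the ADAR+hnRNPC cells. GADD45A was at 26.1, 24.5 and 24.9 CPM on day 3, then 51.7, 49.5 and 59.3 on day 4 and finally 78.4, 81.5 and 83.4 on day 5, above every library of every other study 1 group on days 4 and 5. Against CTRL the day 3 difference was 0.94 (log2), and the gene rose by 1.72 (adjusted p = 1.71e-19) and 2.40 (adjusted p = 8.97e-25) on days 4 and 5. Against hnRNPC-targeted cells it was higher by 0.93 on day 4 (adjusted p = 1.07e-11) and by 1.37 on day 5 (adjusted p = 1.44e-17). GADD45B was at 16.6, 17.9 and 17.6 CPM, then 26.1, 26.3 and 28.1, then 58.3, 55.0 and 68.3, so its rise came later. Against CTRL its difference was 0.13 on day 3, and it rose by 0.72 on day 4 (adjusted p = 9.99e-08) and by 1.89 on day 5 (adjusted p = 4.96e-19). Against hnRNPC cells GADD45B was higher by 0.63 on day 4 (adjusted p = 7.23e-06) and 1.41 on day 5 (adjusted p = 3.96e-15).

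**Figure D3:**
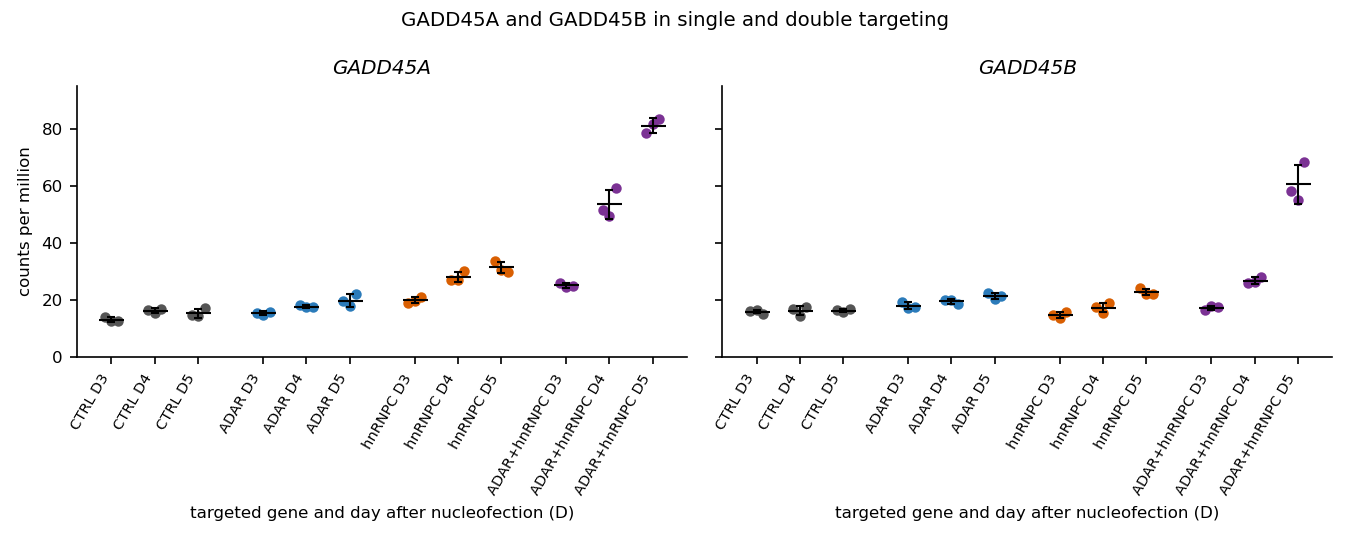
GADD45A and GADD45B in CPM per study 1 library (dots, with mean ± SD of 3) in CTRL, ADAR, hnRNPC and ADAR+hnRNPC cells by day. On day 5 the ADAR+hnRNPC libraries were at 78.4 to 83.4 CPM for GADD45A and 55.0 to 68.3 CPM for GADD45B, and the hnRNPC libraries at 30.0 to 33.8 and 22.0 to 24.1 CPM.

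Whether the effects of the 2 gRNAs added up on the log2 scale was asked with the interaction of ADAR and hnRNPC targeting. For GADD45A the combined effect exceeded the sum by 0.81 on day 4 (SE 0.11, adjusted p = 4.77e-06) and by 1.00 on day 5 (adjusted p = 2.51e-09). For GADD45B the excess was 0.37 on day 4 (adjusted p = 0.08, or 0.048 with the replicate number as a block) and 1.01 on day 5 (adjusted p = 1.82e-07). CDKN1A had no detectable departure from the sum, with −0.14 (adjusted p = 0.798) and −0.24 (adjusted p = 0.497), nor did BTG2 on day 5 (0.30, adjusted p = 0.287). The interaction passed for 1 of 8 members on day 4 (2 with the block) and 2 on day 5, and for 11.1% and 47.6% of all genes.

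The remaining members were compared in the same way. On day 5 of ADAR+hnRNPC targeting CDKN1B fell by 0.59 (log2, adjusted p = 6.78e-09) and CDKN2C by 0.50 (adjusted p = 6.16e-10), while CDKN2D rose by 0.71 (adjusted p = 1.33e-06) and MDM2 by 0.37 (adjusted p = 5.24e-05). Against hnRNPC cells MDM2 differed by −0.11 on day 4 (adjusted p = 0.299) and 0.02 on day 5. CDKN2C was lower than in hnRNPC cells by −0.14 on day 5 (adjusted p = 0.0358), a call lost without any 1 of 4 libraries. Against CTRL, 8 members passed on day 4 and 8 on day 5 (6 higher and 2 lower each), with 57% and 73.5% of all genes. On day 3, a description since those CTRL libraries entered the choice, 4 were past the threshold (all higher), beside 28.7% of all genes. Against ADAR cells, which carry the same ADAR gRNA, 5 passed on day 3 (4 higher), 8 on day 4 and 8 on day 5, with 28.8%, 56.2% and 70.6% of all genes; CDKN1A was higher by 1.46, 1.88 and 2.42. The lower CDKN1B of day 3 (−0.21, adjusted p = 0.0286) was no longer called without any 1 of 3 libraries, nor the higher CDKN2D of day 4 (0.34, adjusted p = 0.0129) without ADAR+hnRNPC replicate 3. Against hnRNPC cells 3 members passed on day 4 and 4 on day 5 (3 higher), with 28.7% and 62.1% of all genes. The members' median on day 5 against CTRL was 1.30, compared with −0.04 over all genes.

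The controls varied too. Between days 3 and 5 of CTRL cells the log2 difference was 0.79 for CDKN1A, 0.48 for BTG2, 0.30 for CDKN1B and 0.23 for GADD45A. These are descriptions, because the day 3 libraries entered the choice of genes, and 4 of 8 members were past the threshold beside 25.7% of all genes. Without CTRL day 5 replicate 3 the last 3 values were 0.29, 0.19 and 0.14. In GFP-targeted cells CDKN1A was at 26.9, 21.8 and 30.7 CPM on day 3, then 33.9, 32.9 and 38.3 on day 4 and finally 39.6, 37.6 and 99.8 on day 5. For its staining the paper sorted GFP-negative cells of a wild-type Cas9 clone after a GFP gRNA. Whether the GFP gRNA cut a transgene in the study 1 cells was not tested here. With edgeR, DESeq2 and limma-voom 0 members passed on days 3 and 4, where 0.0303% and 0.0227% of all genes did with edgeR. An unadjusted edgeR p under 0.05 was met by 2 (CDKN1A and CDKN2D) and 1 (GADD45A). The day 3 values are descriptions, since those CTRL libraries entered the choice. On day 5, 2 members rose, against 7.3% of all genes, CDKN1A by 0.82 (adjusted p = 0.0128) and GADD45B by 0.37 (adjusted p = 0.0203). Without GFP replicate 3 these were 0.21 (adjusted p = 0.431) and 0.19 (adjusted p = 0.292), and without CTRL replicate 2 the CDKN1A call was also lost (0.79, adjusted p = 0.0734). The GADD45B call was also lost without GFP replicate 1 or CTRL replicate 2 or 3. GFP replicate 3 also held the highest values of its group for BTG2 (24.5 against 13.7 and 11.7 CPM) and CDKN2D (12.9 against 8.79 and 7.45 CPM).

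With IFN-alpha, a cytokine added to CTRL cells, CDKN1A rose and GADD45A fell. CDKN1A was at 57.7, 53.6 and 61.9 CPM on day 4, above the CTRL libraries at 30.5, 24.0 and 29.5 CPM, a 2.06-fold rise (log2 1.04, adjusted p = 0.000178). BTG2 was at 8.85, 8.95 and 12 CPM (log2 −0.12, adjusted p = 0.671) and GADD45B at 19.9, 19.7 and 18.1 CPM (log2 0.24, adjusted p = 0.0888). GADD45A was at 15, 12.9 and 12.7 CPM and fell by 0.27 (adjusted p = 0.0173), a call lost without any 1 of 4 libraries. These 2 of 8 members passed where 18.3% of all genes did.

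Reads in introns, which the choice of genes did not use, were counted by the authors over 197626 introns, of which 21798 were tested here. The members held 34 of these and 14 were tested: 9 of MDM2, 3 of CDKN2C and 1 each of CDKN1A and CDKN1B. In hnRNPC cells 11 passed on day 4 (10 higher) and 11 on day 5 (9 higher), against 16.2% and 29.9% of all introns tested, and the members' median was 0.90 and 0.55 (log2) compared with 0.08 and −0.06. Some of these introns were under the filter's level in CTRL libraries and passed through groups where they were higher, so these counts and medians are descriptions. On day 3, also a description, 9 passed, with 11% of all introns. All 9 MDM2 introns were higher on day 4, by 0.69 to 1.74, and 6 on day 5, with values from 0.26 to 1.67, whereas the MDM2 gene count changed by 0.52 and 0.35. The intron at chr12:69210726-69214104 was at 5.26, 5.45 and 4.08 CPM in CTRL and 19.3, 15.3 and 14.7 CPM in hnRNPC cells on day 4, and rose by 1.74 (SE 0.16, adjusted p = 4.85e-11). On day 5 it was at 5.16, 4.22 and 5.52 against 13.3, 13.7 and 15.9 CPM (log2 1.53, adjusted p = 7.64e-10).

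**Figure D4:**
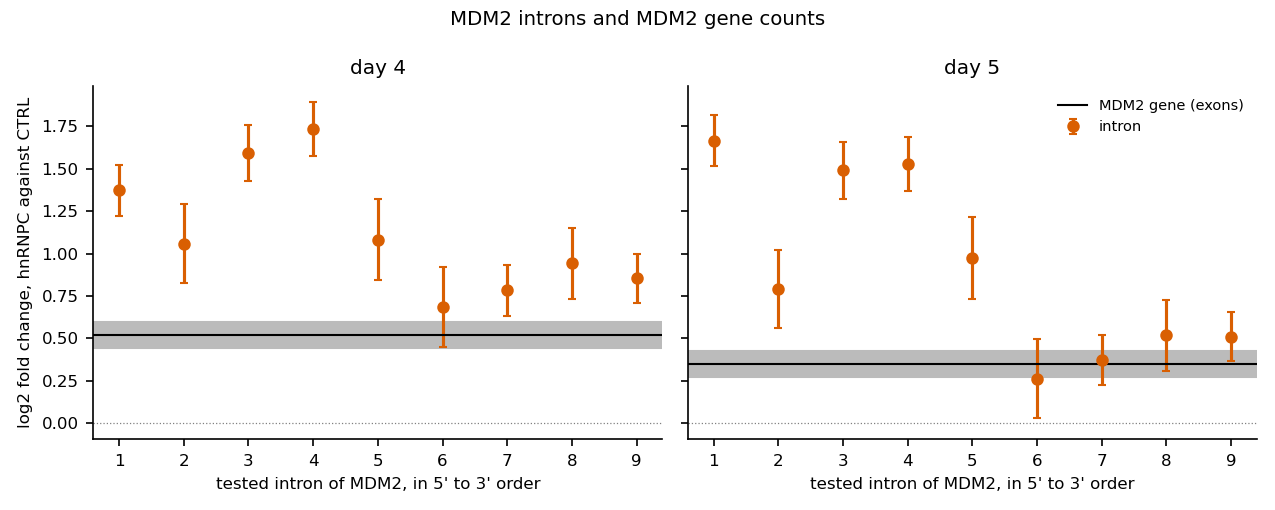
Log2 fold change (± SE) of the 9 tested MDM2 introns in 5′ to 3′ order in hnRNPC-targeted against CTRL cells on days 4 and 5 of study 1; the black line and grey band give the MDM2 gene count's change ± SE. All 9 introns lay above 0.69 on day 4, when the gene changed by 0.52, and on day 5 they ran from 0.26 to 1.67.

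For each library the 9 introns were also summed and set per 100 reads of the MDM2 gene. Over days 4 and 5 this ratio was 20.8 ± 2.59 (SD, n = 6, from 18.5 to 25.7) in hnRNPC and 13.0 ± 1.40 (SD, n = 6, from 11.3 to 15.2) in CTRL cells. The ranges did not overlap, and the difference was 7.79 reads per 100, or 7.37 to 8.16 without 1 replicate number. The ratio was built after these introns were seen to change, so it is a description with no test. Its n counts libraries, and those of days 4 and 5 may come from the same experiments. The introns of MDM2 are not all independent of its neighbors: the gene spans chr12:69201957-69239324 on the plus strand, overlaps exons of CPM on the other strand, and the strand setting of the counting is not stated.

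hnRNPC binds runs of uridine, so the tested introns were searched for runs of at least 9 T on the gene's strand. Of the 9 MDM2 introns 7 held such a run, and of 17286 tested introns with a gene on 1 strand 64.6% did, so the share in MDM2 is close to the background. A match says nothing of binding. The run at the 3′ end of the intron at chr12:69210726-69214104, the MDM2 intron with the largest rise on day 4, is shown in capitals with the bases before it. The window lies at chr12:69214022-69214104 of GRCh37, plus strand, and ends at the 3′ splice site.
MDM2 run of 12 T: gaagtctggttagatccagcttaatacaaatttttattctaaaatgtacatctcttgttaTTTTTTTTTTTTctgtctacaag

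The tested CDKN1A intron at chr6:36646717-36650416 was at 1.23, 0.486 and 0.775 CPM in CTRL and 5.82, 3.14 and 4.19 CPM in hnRNPC cells on day 4, a log2 difference of 2.41 (SE 0.30), and of 3.07 on day 5. These carry no test, since the CTRL libraries lay under the level of the filter and the intron passed through the groups where it was higher. The CDKN1A gene count differed by 2.02 and 2.66 in the same libraries. The CDKN1B intron fell by 0.46 (adjusted p = 0.0202) and 0.73 (adjusted p = 0.000119), as the gene did. Of the 3 CDKN2C introns, 2 were higher (0.56 and 0.54) and 1 lower (−0.39) on day 5, when the gene fell by 0.36.

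Most listed A-to-I editing sites within the members lay in MDM2. The authors grouped edited sites into editing cluster regions (ECRs), stretches that hold several edited adenosines, and of 2875 such regions 2528 were tested here. The 4 that overlap a member all lie in MDM2. All 4 were higher in hnRNPC cells on day 4 (log2 0.46, 1.11, 0.78 and 0.52), where 44.1% of all ECRs changed and 27.3% were higher. They were also higher on day 5 (0.67, 0.84, 0.67 and 0.26), where 53.6% changed and 21.4% were higher. In ADAR+hnRNPC cells on day 5 they were higher too (0.80, 0.63, 0.66 and 0.23), where 66.8% changed and 23% were higher. The authors kept sites that met read and editing minimums in at least 1 treatment. A region could thus be listed through a group where it was higher, so these counts are descriptions. The last of the 4 regions, at chr12:69235998-69238558, also overlaps CPM. Of 263 edited sites in MDM2, 224 had a value in every study 1 library. The share of edited reads was 0.997% ± 0.321 (SD, n = 9, from 0.560% to 1.43%) in ADAR-targeted and 2.96% ± 0.533 (SD, n = 9, from 2.40% to 4.01%) in CTRL cells. The groups did not overlap, and the difference was −1.96 percentage points. The authors kept a site only if it was edited in at least 1 sample without ADAR targeting. A lower share in ADAR-targeted cells thus follows in part from that choice, and the difference is a description with no test. Here n counts libraries over days 3, 4 and 5, which may come from the same experiments. At the 24 sites with at least 10 reads in every library used the shares were 1.59% and 7.75%. The mean share was 3.33%, 3.28% and 3.57% in hnRNPC cells on days 3, 4 and 5 and 5.35% after IFN-alpha, and 1.62%, 1.29% and 2.03% in ADAR+hnRNPC cells. Each library's share rests on 1313 to 8329 reads over these sites. Besides MDM2, CDKN1B had 4 listed sites in study 1 and CDKN1A 5 in study 2.

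In study 2 the members were asked again with other gRNAs and another clone. CDKN1A stood at 128 and 134 CPM in CTRL total RNA, and at 198 and 177 CPM in hnRNPC, 99.7 and 107 CPM in ADAR and 125 and 106 CPM in ADAR+hnRNPC total RNA. It rose in hnRNPC cells by 0.52 (log2, 95% interval 0.21 to 0.82, adjusted p = 0.0483), a call lost without any 1 of the 4 libraries. GADD45A was at 14.4 and 12.3 CPM in CTRL and 19.4 and 20.8 CPM in hnRNPC total RNA and rose by 0.59 (adjusted p = 0.0288), a call lost without any 1 of 3 libraries. BTG2 was at 40.5 and 35.1 CPM against 43.9 and 26.5 CPM, with a difference of −0.10 (95% interval −0.50 to 0.29). These 2 of 8 members passed where 5.11% of all genes did. In cytosolic RNA 0 members passed with edgeR, DESeq2 and limma-voom, against 2.6% of all genes with edgeR, and 3 had an unadjusted p under 0.05 (CDKN1A 0.38, adjusted p = 0.192, CDKN2C −0.27, adjusted p = 0.253, and GADD45A 0.39, adjusted p = 0.171).

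GADD45A was the member that rose with ADAR targeting in study 2. It was at 30.2 and 30.2 CPM in ADAR and 37.7 and 31.9 CPM in ADAR+hnRNPC total RNA, above both CTRL libraries, and rose by 1.18 (log2, adjusted p = 7.62e-05) and 1.38 (adjusted p = 7.2e-06). In cytosolic RNA it was at 18 and 20.2 CPM in CTRL, 23.5 and 26.5 in hnRNPC, 46.4 and 44.7 in ADAR and 72.2 and 63.0 in ADAR+hnRNPC cells, with rises of 1.25 (adjusted p = 9.73e-06) and 1.82 (adjusted p = 1.28e-07) in the last 2. GADD45B rose in ADAR+hnRNPC cytosolic RNA by 0.49 (adjusted p = 0.0462), lost without any 1 of 3 libraries. CDKN1A was lower in ADAR than in CTRL cytosolic RNA (123 and 124 against 162 and 210 CPM) by −0.59 (adjusted p = 0.00658), and BTG2 (23.1 and 27.1 against 42.0 and 47.0 CPM) by −0.83 (adjusted p = 0.00462). The CDKN1A call was lost without ADAR replicate 1 (adjusted p = 0.0535) or CTRL replicate 2 (−0.40, adjusted p = 0.125), and the BTG2 call without ADAR replicate 1 (−0.72, adjusted p = 0.0672). In ADAR+hnRNPC total RNA CDKN2C (185 and 172 against 279 and 223 CPM) fell by 0.49 (adjusted p = 0.00496), CDKN2D (4.13 and 3.73 against 7.21 and 5.60 CPM) by 0.71 (adjusted p = 0.00977) and CDKN1B (36.2 and 29.1 against 54.9 and 36.0 CPM) by 0.48 (adjusted p = 0.0311). All 3 calls were lost without CTRL replicate 1 (−0.32, adjusted p = 0.0615, −0.51, adjusted p = 0.0977, and −0.14, adjusted p = 0.510), and those of CDKN2D and CDKN1B also without ADAR+hnRNPC replicate 2.

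CDKN2C also fell in ADAR+hnRNPC cytosolic RNA (231 and 215 against 327 and 313 CPM), by 0.52 (log2, adjusted p = 0.00238), whereas CDKN1A did not differ detectably there (0.04, adjusted p = 0.839). The members past the test numbered 1 in ADAR total RNA (12.9% of all genes), 3 in ADAR cytosolic RNA (22.7%), 4 in ADAR+hnRNPC total RNA (34.7%) and 3 in ADAR+hnRNPC cytosolic RNA (40.6%). Leaving out a library there leaves its group with 1, which is assumed to vary like the others.

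**Figure D5:**
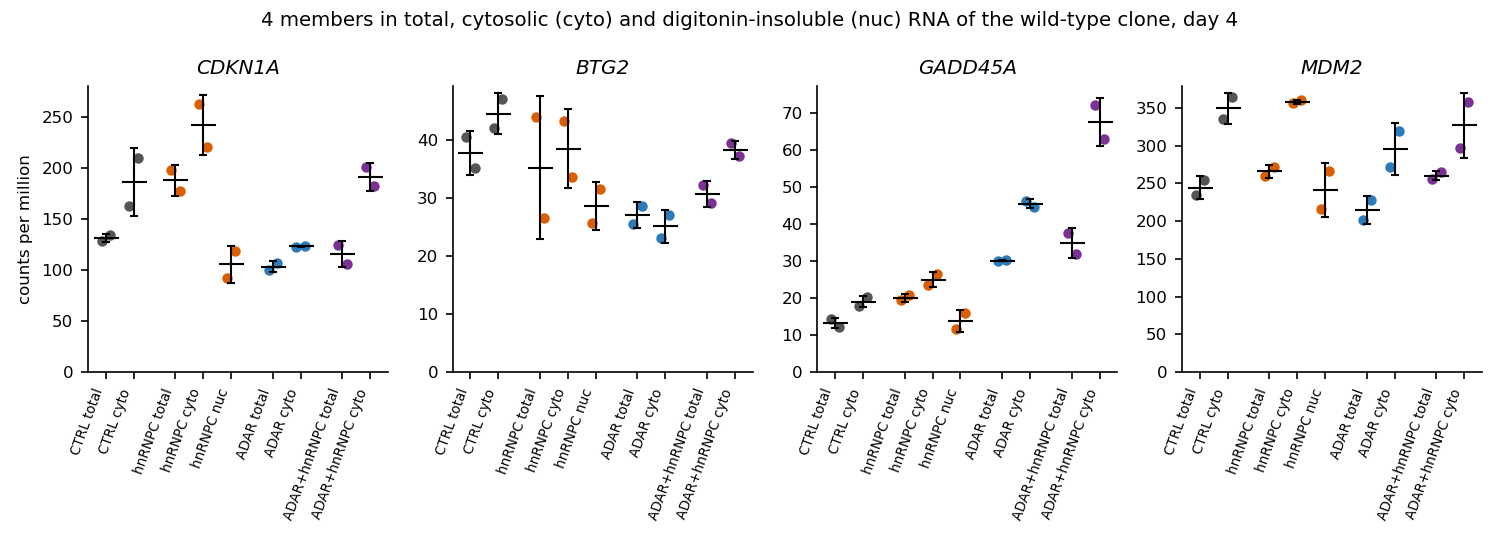
CDKN1A, BTG2, GADD45A and MDM2 in CPM in the 18 study 2 libraries (dots, with mean ± SD of 2) by targeting and kind of RNA. GADD45A reached 63.0 to 72.2 CPM in ADAR+hnRNPC cytosolic RNA against 18 to 20.2 CPM in CTRL, and CTRL CDKN1A in total RNA, at 128 to 134 CPM, was above the CTRL range of study 1.

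The kinds of RNA differed for most members. Across the 4 targetings 5 of 8 members were higher in cytosolic than in total RNA, where 76.4% of all genes differed: GADD45A by 0.60 (log2), CDKN2D by 0.47, CDKN1A by 0.46 (adjusted p = 2.03e-05), MDM2 by 0.43 and CDKN2C by 0.22, with a median over all genes of 0.17. CDKN1B (0.11), BTG2 (0.14) and GADD45B (−0.04) did not pass. In hnRNPC cells 6 members were higher in the digitonin-soluble than in the digitonin-insoluble RNA, where 70.9% of all genes differed. CDKN1A was at 262 and 221 against 92.4 and 119 CPM, a difference of 1.20, with a median over all genes of 0.27. GADD45B was at −0.13 and BTG2 at 0.43 (adjusted p = 0.0515).

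The genes around the members were read from lists of cyclins and their kinases, relatives of the members and proliferation markers. Over all genes tested, 23.4% rose and 28% fell in hnRNPC cells on day 4 and 29.5% and 35.2% on day 5, and 25.5% and 31.6%, then 34.5% and 39%, in ADAR+hnRNPC cells. Of 17 tested cyclins, kinases and RB family genes of 18, 7 rose and 4 fell in hnRNPC cells on day 4 (median 0.10), and 4 rose and 8 fell on day 5 (median −0.14). In ADAR+hnRNPC cells 6 rose and 8 fell on day 4 (median −0.07), and 4 rose and 11 fell on day 5 (median −0.52). The cyclin gene CCNE1, whose kinase p21 and p27 bind, fell by 1.07 in ADAR+hnRNPC cells on day 5. Of 16 proliferation markers 2 rose and 4 fell in hnRNPC cells on day 4 and 3 rose and 8 fell on day 5 (medians −0.03 and −0.16). In ADAR+hnRNPC cells 0 rose on either day, and 7 fell on day 4 and 15 on day 5 (medians −0.06 and −0.65). On day 5 the replication gene MCM3 fell by 1.20 in hnRNPC and by 1.14 in ADAR+hnRNPC cells, and RRM2 by 1.19 and TOP2A by 1.03 in ADAR+hnRNPC cells. Of 7 tested relatives 2 rose in each on both days, and on day 4, 3 and 2 fell and on day 5, 4 and 3. Among the untested relatives CDKN2A had no read in any of the 48 libraries and CDKN2B none in 47, and GADD45G reached at most 0.576 CPM. The part of these shifts in the members' changes was not tested, nor was that of the monocytic markers, of which on day 5, 2 of 7 tested rose and 2 fell in hnRNPC cells and 3 rose and 3 fell in ADAR+hnRNPC cells, with ITGAM at 1.15 and 2.31. The tested marker of other blood cells rose in hnRNPC cells.

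Over the 16 group means of study 1, the genes whose log2 CPM ran most like CDKN1A among 13179 compared were FBXO34 (Pearson r 0.973), PIRAT1 (0.971), TNFSF9 (0.962), PRPF3 (0.960) and FAM53C (0.955). Of the members BTG2 came nearest (0.943), then GADD45A (0.861), MDM2 (0.849), CDKN2D (0.832) and GADD45B (0.694), whereas CDKN1B (−0.697) and CDKN2C (−0.815) ran against it. These are descriptions over 16 points that share libraries' depth and day, with no test.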

How the data were processed

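RNA-seq libraries were made by the authors from ribosomal-depleted total RNA with a stranded kit, aligned with STAR (2.5.4a) to GRCh37, and counted with featureCounts on GENCODE exons, and counted separately over introns and editing cluster regions (ECRs). The strand setting of the counting is not given in the sources used here. The authors deposited raw counts per gene, intron and ECR, and counts of edited and unedited reads per site. 0 columns lacked a sample. Loci and exons came from a GENCODE annotation lifted to GRCh37.

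Here edgeR (4.0.16, R 4.3.3, with limma 3.58.1) fitted a quasi-likelihood model to all 48 libraries of study 1 or all 18 of study 2, 1 coefficient per group, after scaling by trimmed mean of M-values. The filter was a mean log2 CPM of 0.5 or more for genes, 1 for introns and 4.5 for ECRs. P-values were adjusted by Benjamini-Hochberg over all features tested, with a threshold of 0.05, and intervals are 95%. The MDM2 intron ratio and the ECR alternatives were added after seeing the data. Alternatives were relative log expression scaling, no filter, DESeq2 (1.42.0), limma-voom, a replicate block, GFP as control and leaving out each library. On simulated counts (hnRNPC against CTRL, day 5, 13187 genes) 50%, 97.5% and 100% of genes changed 1.5-, 2- and 4-fold were recovered, and in study 2 (13637 genes) 20%, 87.5% and 100%. The simulated spread was assumed and not estimated from these data, and 40 genes were changed at each fold. In the real day 5 comparison 64.8% of all genes passed, so these shares do not give the power in these data. No replicates matched within sampling noise: the smallest chi-square per degree of freedom was 12.06 over 48 pairs and 13.13 over 9. The study describes its libraries as independent experiments, 3 in study 1 and 2 in study 2, without tying them to replicate numbers.

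The members, gene lists and tests were chosen with earlier results of these data known. Besides the members, the text names the 5 genes most like CDKN1A, HNRNPC, ADAR and, from each list given, up to 4 genes with the largest change among those past the threshold and a log2 fold change of 1 on day 5 in hnRNPC or ADAR+hnRNPC cells. CD33, SPI1, CD14, GATA1, CDKN2A, CDKN2B and GADD45G were named after their values were seen. Some planned results are not reported here.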

Additional observations from a re-analysis of the deposited data

Results flagged for a closer look

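Between days 4 and 5 the effect of hnRNPC targeting on GADD45B grew by 0.39 (log2, SE 0.14, adjusted p = 0.0282, edgeR), and that of ADAR+hnRNPC targeting grew by 0.68 for GADD45A (adjusted p = 7.38e-06) and by 1.17 for GADD45B (adjusted p = 1.66e-08). The effect of hnRNPC targeting differed between cells with and without the ADAR gRNA for GADD45A, by 0.81 on day 4 (adjusted p = 4.77e-06) and 1.00 on day 5 (adjusted p = 2.51e-09), and for GADD45B by 1.01 on day 5 (adjusted p = 1.82e-07).

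Each of the 9 members was compared between the studies under hnRNPC, ADAR and ADAR+hnRNPC targeting. In 5 cases the targeted libraries fell on opposite sides of all CTRL libraries. The share of all genes that did so was not counted, so nothing is read from this number. They lay above them on day 4 of study 1 and below them in total RNA of study 2. The ratio of the mean CPM to CTRL was 0.788 in study 2 and 1.34 in study 1 for CDKN1A in ADAR cells, 0.879 and 4.93 for CDKN1A in ADAR+hnRNPC cells, and 0.613 and 1.31 for CDKN2D in ADAR+hnRNPC cells. For BTG2 it was 0.715 and 1.20 in ADAR cells and 0.811 and 3.43 in ADAR+hnRNPC cells. These differences between the studies were not tested, and the clone, the gRNAs and the experiment changed together.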

How the results depend on the processing

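No member called in the report changed sign under any alternative run, and effects without a call were not checked for this. Counts that use the day 3 CTRL libraries remain descriptions throughout this section. Counts of members called that moved: with no filter on low counts 1 was called in each of ADAR day 3, ADAR day 4, GFP day 3 and GFP day 4 (0 in the report), 2 in ADAR total RNA of study 2, and 18 member introns on day 5. With GFP as control 0 were called in ADAR cells on day 5, and the day 3 CDKN1A difference was 0.76. With relative log expression scaling 1 was called in hnRNPC total RNA and 5 in ADAR cytosolic RNA, and with DESeq2 2 in ADAR total and 5 in ADAR cytosolic RNA. The cause of these moves was not tested, beyond the larger number of genes tested with no filter.

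Replicate numbers were not taken to pair the samples, because neither the labels nor the methods say that a number marks 1 experiment and not all same-number pairs correlated over 0.1: of 360 same-number pairs in study 1, 220 correlated over 0.1, as did 44 of 72 in study 2, although 40 of 48 and 16 of 18 libraries correlated best with their own number. With the replicate block 2 members were called for the interaction on day 4 (GADD45B 0.37, adjusted p = 0.048).

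Leaving out 1 library at a time, members called ranged from 7 to 7 and 8 to 8 for hnRNPC days 4 and 5, 1 to 2 for ADAR day 5, 4 to 5, 8 to 8 and 8 to 8 for ADAR+hnRNPC on days 3 to 5, 4 to 6, 7 to 8 and 8 to 8 against ADAR, 2 to 3 and 2 to 3 against hnRNPC, 0 to 4 for GFP day 5, 1 to 2 for IFN-alpha, 1 to 5 for CTRL over time, and 1 to 2 and 2 to 2 for the interaction. In study 2 they ranged from 0 to 1 and 1 to 2 in hnRNPC and ADAR total RNA, 1 to 4 in ADAR cytosolic, 1 to 4 and 2 to 3 in ADAR+hnRNPC total and cytosolic RNA, and 5 to 6 and 5 to 7 between kinds of RNA. Introns ranged from 9 to 12 and 8 to 12, ECRs from 4 to 4, 3 to 4 and 3 to 4, the CDKN1A day 3 difference from 1.15 to 1.29, MDM2 intron reads per 100 from 7.37 to 8.16, and MDM2 editing from −2.07 to −1.80 points.

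Over all genes, counts moved by more than 1.5 times for ADAR day 3 (0 in the report, 122 with no filter, 1 with the block, 1 with DESeq2, 5 with GFP as control), ADAR day 4 (85, 303, 268, 169 and 9 in the same order), ADAR day 5 (1217, 2294 with the block, 327 with GFP as control), GFP day 3 (4, 75 with no filter, 1 with limma-voom), GFP day 4 (3, 133 with no filter, 9 with the block, 12 with DESeq2), GFP day 5 (963, 1798 with the block), the day 4 interaction (1464, 2224 with the block), and hnRNPC total (697, 1378 with no filter, 1375 with DESeq2), hnRNPC cytosolic (354, 648 and 785) and ADAR total RNA (1759, 2677 with no filter) of study 2.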
